A study of Caenorhabditis elegans with 2 samples.

Results

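The tubulin genes described here are the 4 alpha tubulin genes *tba-1*, *tba-2*, *tba-4* and *mec-12* and the 4 beta tubulin genes *tbb-1*, *tbb-2*, *tbb-4* and *mec-7* of *Caenorhabditis elegans*, 8 of 19973 protein-coding genes. They were listed by name, and a LIN-39 peak was counted for a gene when its summit lay in the gene body or up to 2000 bp upstream. The midbody Hox protein LIN-39, a transcription factor, was mapped as an eGFP fusion by ChIP-seq, the sequencing of DNA that is precipitated with a protein, in 2 biological replicates of whole L3 larvae, with both sexes pooled. The larvae were of strain OP18, which carries *unc-119(ed3)* III and the insertion wgIs18 with the tagged *lin-39*. The mapped protein is thus the tagged one made from an insertion in a single strain, and the labels do not say in which cells it is made. Both samples form a single group, and no untagged or mutant group was analysed here, so no contrast between conditions and no p-value is given. Whole larvae do not separate cell types, and a peak list has no expression values against which stage or tissue could be checked.

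Microtubules are built from dimers of alpha and beta tubulin, and the worm makes several forms of each. TBA-1, TBA-2, TBB-1 and TBB-2 are the general forms, known best from the spindles of dividing embryonic cells. MEC-12 and MEC-7 form the large microtubules of the touch receptor neurons, and TBB-4 is found in ciliated sensory neurons. LIN-39 itself is known for its part in vulval precursor cells, in ventral cord neurons and in the migration of Q neuroblast descendants, which include touch receptor neurons.

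The sequences at the 3 LIN-39 summits that the general beta tubulin genes had in the authors' list of reproducible peaks are shown. These genes carry the beta tubulin part of the result. For contrast, sequences at the strongest pooled summits of the touch receptor neuron genes *mec-12* and *mec-7*, which missed that list, are shown beside them. Each is from the ce11 assembly, 5′ to 3′ on the minus strand, on which all 4 genes are transcribed, and spans 50 bp on both sides of the summit of the pooled list, except at *tbb-1*, where the whole 99 bp peak is given. Capitals mark both copies of the longest repeated word where it has at least 8 bases, either as a direct repeat or as an inverted one.
*tbb-1*, chrIII:10742614-10742712: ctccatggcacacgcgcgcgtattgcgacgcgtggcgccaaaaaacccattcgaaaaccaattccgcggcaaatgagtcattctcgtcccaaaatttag
*tbb-2*, chrIII:4018277-4018377: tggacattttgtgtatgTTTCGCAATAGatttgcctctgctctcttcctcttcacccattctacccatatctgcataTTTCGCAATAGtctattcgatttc
*tbb-2*, chrIII:4019050-4019150: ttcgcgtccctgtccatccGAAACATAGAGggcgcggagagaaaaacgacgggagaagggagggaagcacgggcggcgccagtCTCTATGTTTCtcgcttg
*mec-12*, chrIII:3139232-3139332: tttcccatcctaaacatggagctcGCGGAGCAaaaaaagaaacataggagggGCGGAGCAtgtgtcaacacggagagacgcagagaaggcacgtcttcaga
*mec-7*, chrX:7776784-7776884: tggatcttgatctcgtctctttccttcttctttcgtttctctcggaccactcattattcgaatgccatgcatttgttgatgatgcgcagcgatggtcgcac

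The stronger *tbb-2* sequence held the 11-base word TTTCGCAATAG in 2 direct copies, and the weaker one held CTCTATGTTTC and its reverse complement. Repeats were searched after these sequences had been seen, and the counts that follow include both of them, so nothing is read from the counts. Over the 8 summits of the optimal list at tubulin genes, 2 (one each at *tbb-2* and *tba-1*) had a direct repeat of at least 11 bases in the 101 bases around them, against 2.31% of all 4250 optimal summits, and 1, at *tbb-2*, had an inverted repeat of that length, against 0.588%. The *tbb-1* and *mec-7* sequences had no repeat of 8 bases.

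LIN-39 summits were found at the 4 general tubulin genes and at none of the others in the list of reproducible peaks that the authors made from both replicates, called optimal here. *tba-2* held 3 summits, *tba-1* and *tbb-2* held 2 each and *tbb-1* held 1, whereas *tba-4*, *mec-12*, *tbb-4* and *mec-7* held none. Of the 8 tubulin genes 4 (50%) thus had an optimal summit, against 19.2% of all protein-coding genes. 3 of the 8 had at least 2 summits and 1 had 3, against 3.27% and 0.871% of all protein-coding genes. At each of these 3 genes, *tba-1*, *tba-2* and *tbb-2*, 1 summit lay nearest to the start of another protein-coding gene (*cox-5B*, *pbs-2* and *snpc-3.4*). The single *tbb-1* summit also lay nearest to the start of another gene, *rib-2*. With gene bodies alone the count of genes with an optimal summit was 1, *tba-2*, against 5.22% of all protein-coding genes. These shares describe a short list that was chosen with earlier results of these data known, and they were not tested. The windows of the 8 genes were of ordinary length, 3506 to 9661 bp with a median of 3839 bp, against a median of 4027 bp over all protein-coding genes.

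The optimal list holds the 4250 peaks of highest signal among the 30000 of the relaxed list of both replicates pooled. Signal is the strength the authors' peak caller gave each peak. It has no error of its own. Signals are ranked and compared here only within a list or between the pooled list and its optimal part, because the scale differs between the other lists. The relaxed lists made from a single replicate had 30000 peaks for replicate 1 and 27572 for replicate 2. No read numbers are in these files, and sequencing depth is therefore unknown. With no reads to count, no interval can be put on a rank, and the spread between the replicates is the only error available.

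**Figure D1:**
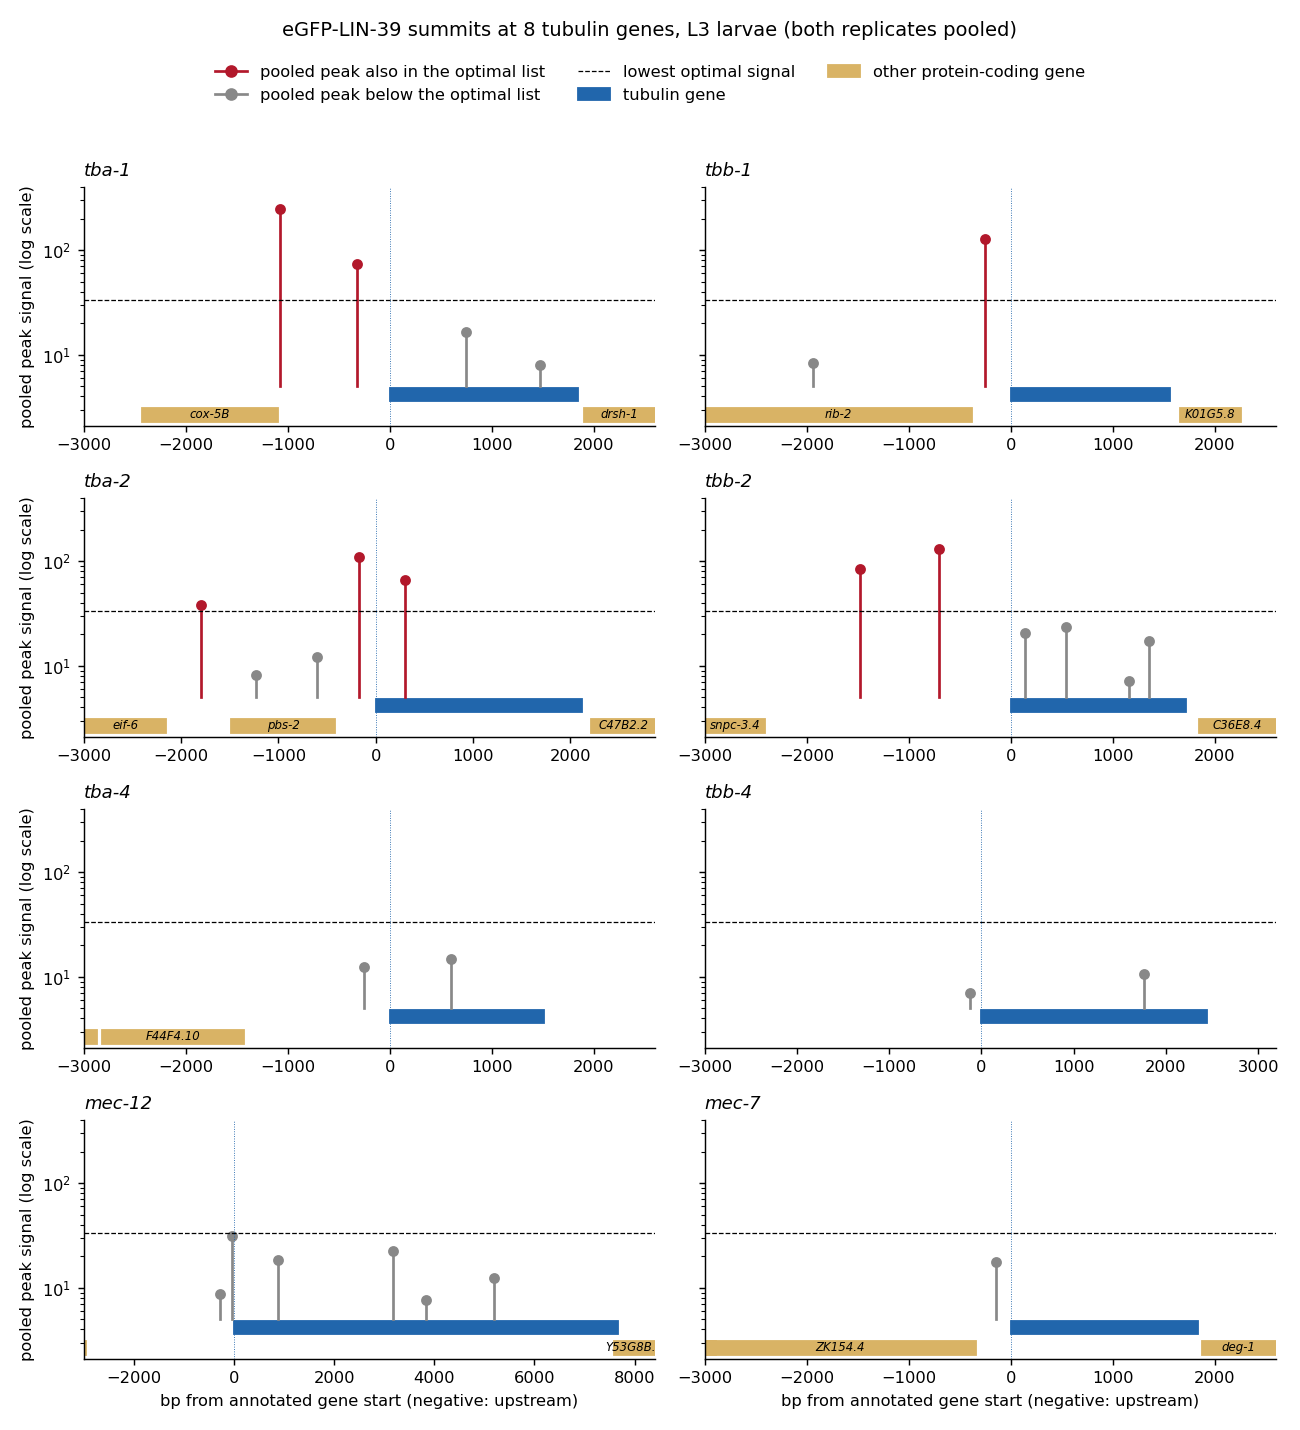
Pooled LIN-39 summits in the windows of the 8 tubulin genes. The horizontal axis is the distance in bp from the annotated gene start and the vertical axis the pooled peak signal on a log scale; the dashed line is the lowest optimal signal, 33.1, and boxes are genes. The 8 optimal summits lie at *tba-1*, *tba-2*, *tbb-1* and *tbb-2*, and the highest grey point, at *mec-12*, lies just under the line.

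*tba-1* carried the strongest peak of the family. This alpha tubulin gene lies on chromosome I, 9785781 to 9787624, minus strand, and its stronger peak (9788622 to 9788784, 163 bp wide) had a signal of 248 and stood at rank 21 of 4250 in the optimal list, at 94 in replicate 1 and 19 in replicate 2. The summits of the replicates both lay within 2 bp of the pooled one. That summit was 1075 bp upstream of *tba-1* but only 26 bp upstream of *cox-5B*, which encodes a subunit of cytochrome c oxidase and is read in the opposite direction. The files do not tell to which of the neighbours such a peak belongs.

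The other *tba-1* peak (9787793 to 9788108) lay 327 bp upstream of the gene start, nearest to *tba-1* itself. Its signal was 73.0 (rank 1127), with rank 1454 in replicate 1 and 878 in replicate 2, where the summit lay 98 bp from the pooled one. A further pair of pooled summits fell in coding exons of *tba-1*, with signals of 16.3 and 7.91. They ranked 10044 and 24422 of 30000, far below the optimal list.

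*tba-2*, the second general alpha tubulin gene (chromosome I, 12964674 to 12966795, minus strand), had its peaks on both sides of its outer start. The strongest (12966807 to 12967122, signal 109, rank 433) lay 170 bp upstream, with rank 432 in replicate 1 and rank 1055 in replicate 2. The next (12966336 to 12966651, signal 66.6, rank 1386) lay in an intron of the longer transcript, 301 bp inside the gene. It was 223 bp upstream of the start of the shorter transcript, so all 8 optimal summits of the family lay upstream of the nearest annotated start of their gene. This intron summit ranked 755 in replicate 1 and 3527 in replicate 2.

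The third *tba-2* peak (12968437 to 12968752, signal 38.1, rank 3522) lay 1800 bp upstream, beyond the proteasome subunit gene *pbs-2*. It was 315 bp upstream of *pbs-2* and 351 bp upstream of the translation initiation factor gene *eif-6*. Replicate 2 ranked it 2780 and replicate 1 ranked it 25687, the largest difference in rank between replicates among the 8 summits. Without it *tba-2* would keep 2 summits.

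Among the beta tubulin genes, *tbb-1* (chromosome III, 10740868 to 10742432, minus strand) had a single optimal peak, and its ranks were the closest between replicates. The peak, whose sequence opens the set above, was 99 bp wide against a median of 316 bp for the optimal list. Its signal was 128 (rank 276), and it ranked 319 in replicate 1 and 277 in replicate 2. The summit lay 254 bp upstream of *tbb-1* and 124 bp upstream of *rib-2*, a heparan sulfate synthesis gene read the other way, with 378 bp between the starts of both genes. As at *tba-1*, the nearest annotated start was the neighbour's.

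*tbb-2* (chromosome III, 4015910 to 4017627, minus strand) had 2 optimal peaks whose order differed between replicates. The nearer peak (4018169 to 4018484, signal 130, rank 263) lay 700 bp upstream and ranked 103 in replicate 2 but 1360 in replicate 1, where the summit was 95 bp away. The farther peak (4018942 to 4019257, signal 84.3, rank 823) lay 1473 bp upstream and ranked 407 in replicate 1 but 2521 in replicate 2. Replicate 1 thus put the strongest *tbb-2* summit 1470 bp upstream, and replicate 2 put it 697 bp upstream. The farther summit was nearer to the start of *snpc-3.4*, at 937 bp. A noncoding RNA gene, *C36E8.10*, lies between *tbb-2* and the nearer summit, from -678 to -490 bp relative to the *tbb-2* start. Its start, at -490 bp, was closer to that summit than the *tbb-2* start.

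*tbb-2* also had 4 pooled summits inside the gene that missed the optimal list, with signals of 7.10, 17.1, 20.5 and 23.2 (ranks 27400 to 6554). 3 of them lay in coding exons and 1 in an intron. In replicate 1 alone the summit 139 bp inside the gene ranked 2606, among that replicate's 4250 strongest, and replicate 2 listed no summit there.

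**Figure D2:**
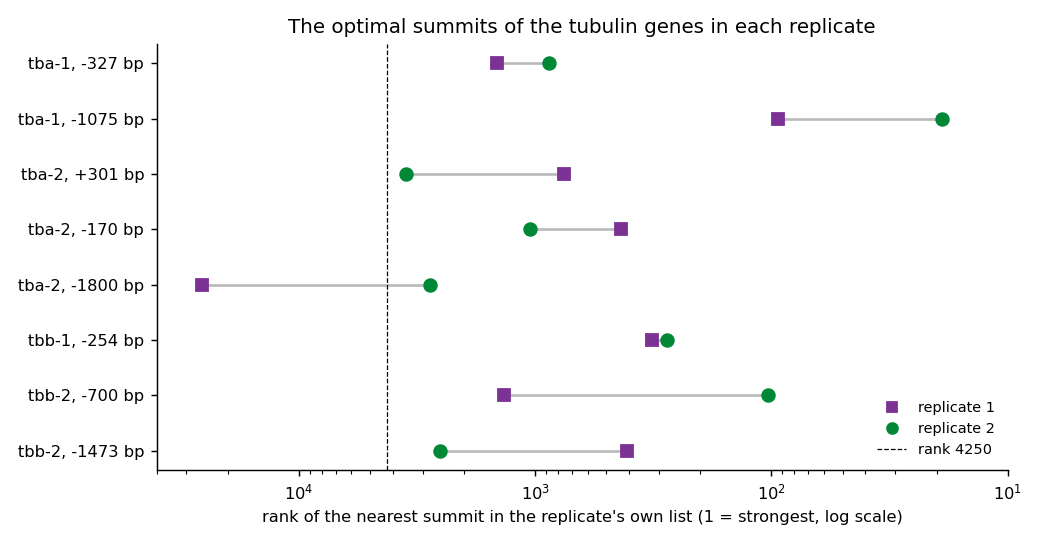
Ranks of the 8 optimal tubulin summits in each replicate. Each row is a summit, named by its gene and its distance from the outer gene start; squares are replicate 1 and circles replicate 2, on a log axis of rank in the replicate's own relaxed list, with stronger peaks to the right. 7 of the 8 rows have both symbols to the right of rank 4250, and the summit 1800 bp upstream of *tba-2* does not.

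Both replicates placed 7 of the 8 optimal summits among their own 4250 strongest peaks, against 56.2% of all optimal summits, and replicate 2 alone placed the remaining one there. The optimal list is itself made from both replicates, 5 of the 8 summits were among its 1000 strongest, and the difference was not tested. Replicate 1 gave 3 of the summits the better rank and replicate 2 gave 5. The replicates' summits lay 0 to 98 bp from the pooled ones. The lists of both were called with the same control alignments, per the deposited file indexes, so the lists are not independent of each other.

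The touch receptor neuron tubulin genes had peaks below the optimal list. At *mec-12* (chromosome III, 3131574 to 3139234, minus strand), which encodes an alpha tubulin of these neurons, the strongest pooled peak lay 48 bp upstream. Its signal was 31.5, against 33.1 for the weakest optimal peak, and it ranked 4524. Replicate 2 ranked a summit 105 bp upstream 3108, among its own 4250 strongest. Replicate 1 ranked its summit 36 bp upstream 9095. The start of *mec-12* was thus among the stronger places in replicate 2 and not in replicate 1.

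Replicate 1's best *mec-12* summit lay instead in an intron, 3174 bp inside the gene, with rank 3445. The pooled list had a summit at the same position with a signal of 22.4 (rank 6864), and replicate 2's summit in that intron region, 2977 bp inside, ranked 9992. In all *mec-12* had 6 pooled summits, 3 of them in introns, in a gene of 7661 bp. It is the longest of the 8 genes.

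*mec-7* (chromosome X, 7774856 to 7776689, minus strand), which encodes a beta tubulin of touch receptor neurons, had 1 pooled summit, 145 bp upstream, with a signal of 17.7 (rank 9080). Replicate 2 put a summit 185 bp upstream at rank 3621, among its own 4250 strongest, and a weak one 1674 bp upstream at rank 21506. Replicate 1 listed no summit in the *mec-7* window, so the peak at the *mec-7* start was listed by replicate 2 and the pooled list only.

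*tba-4* and *tbb-4* had only weak summits. *tba-4* (chromosome II, 10918706 to 10920211, plus strand) had pooled summits 601 bp inside the gene, in a coding exon (signal 14.9, rank 11243), and 253 bp upstream (signal 12.3, rank 14346). Its best ranks were 8412 in replicate 1 and 10303 in replicate 2, at different places. *tbb-4* (chromosome X, 9434452 to 9436893, minus strand), the ciliated neuron gene, had pooled summits 1759 bp inside the gene in a coding exon (signal 10.6, rank 17405) and 118 bp upstream (signal 7.02, rank 27803). Replicate 1 had only the first of these (rank 8753), and replicate 2 had only a summit 323 bp upstream (rank 9611).

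All 8 tubulin genes had a summit in the pooled relaxed list, which holds peaks and background by its label, and so had 61.5% of all protein-coding genes. In the relaxed lists of single replicates the counts were 7 of 8 in replicate 1, against 66.6% of all genes, and 8 of 8 in replicate 2, against 53.5%. A relaxed summit was thus common among genes of any kind. Among each replicate's own 4250 strongest peaks, 5 tubulin genes had a summit in replicate 1, against 18.3% of all genes, and 6 in replicate 2, against 19.0%. The additions to the 4 general genes were *mec-12* in both and *mec-7* in replicate 2.

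**Figure D3:**
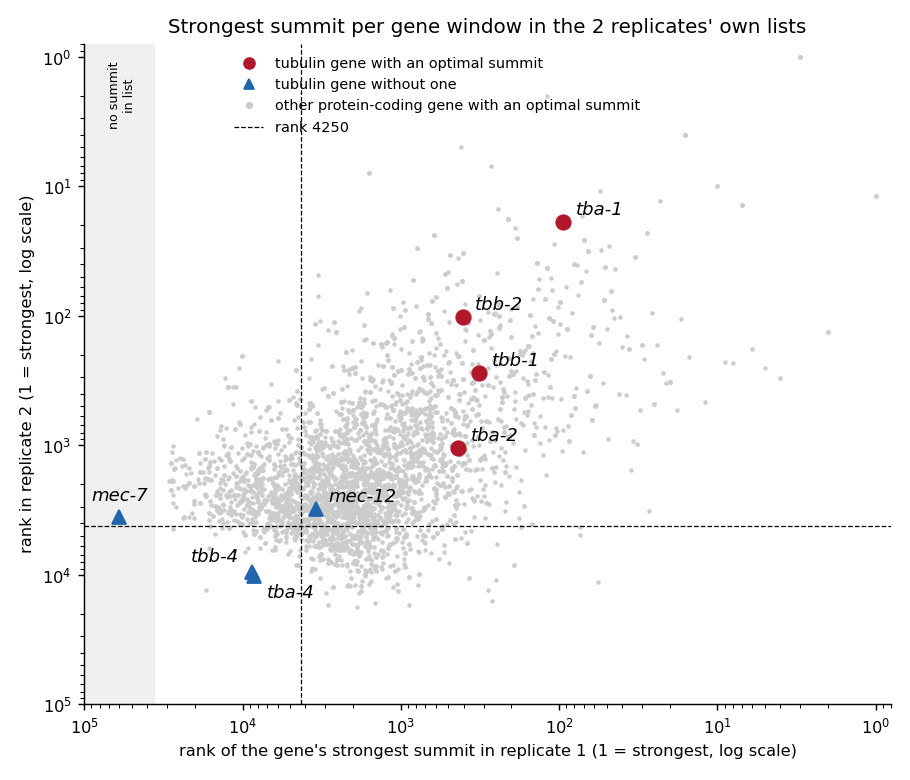
Rank of the strongest summit in the gene window in replicate 1 (horizontal) and replicate 2 (vertical), both on log axes with 1 the strongest, for the 8 tubulin genes and, in grey, all other protein-coding genes with an optimal summit and a summit in both lists. The order of the 4 general genes from the upper right starts with *tba-1* (94 and 19); *mec-7*, with no summit in replicate 1, stands in the shaded strip.

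Ranked by their strongest optimal signal, the general tubulin genes ran from *tba-1* (248) through *tbb-2* (130) and *tbb-1* (128) to *tba-2* (109). *tbb-2* and *tbb-1* were next to each other, at ranks 263 and 276, and cannot be put in order, since replicate 1 ranked the best *tbb-1* summit higher (319 against 407 for *tbb-2*) and replicate 2 ranked the best *tbb-2* summit higher (103 against 277 for *tbb-1*). The median of the strongest signals was 129 over the 4 tubulin genes with an optimal summit, against 58.8 over all 3842 protein-coding genes with one. The genes whose pair of replicate ranks was most like that of *tba-1*, by the distance of log10 ranks over the 2 samples, were led by *cox-5B* (the same peak). Next came *dld-1* (ranks 72 and 17, distance 0.125), which encodes dihydrolipoamide dehydrogenase, and *cox-5A* (ranks 107 and 28, distance 0.178), which encodes another subunit of cytochrome c oxidase. Close behind *cox-5A* were *lin-54*, *rpl-12* and *tag-115*, all with ranks 70 and 26 (distance 0.187). Equal ranks in both replicates are what a shared peak gives, so these are not separate cases. The *tba-1* ranks compared here, 94 and 19, are those of the peak 26 bp upstream of *cox-5B*. The peak nearest to the *tba-1* start ranked 1454 in replicate 1 and 878 in replicate 2.

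Neighbouring genes share these peaks. All 8 optimal summits also lay in the window of at least 1 other protein-coding gene. Among the starts of protein-coding genes, the nearest to 4 of them was that of another gene: *cox-5B*, *pbs-2*, *rib-2* and *snpc-3.4*. Noncoding genes were left out of this search, and the start of *C36E8.10* was closer to the nearer *tbb-2* summit than the *tbb-2* start. When each summit was given only to the protein-coding gene with the nearest start, 3 tubulin genes kept one, against 16.0% of all protein-coding genes. *tba-1* then kept the peak of signal 73.0, *tba-2* and *tbb-2* kept their strongest, and *tbb-1* had none. Many worm messages receive a spliced leader that replaces their first bases, so an annotated start can lie downstream of the place where transcription begins.

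Tubulin genes are close relatives, so reads could in principle fit more than one of them. All 36-base windows of the 8 optimal peaks occurred once in the reference genome (100% unique in each). Among the weaker tubulin peaks of the 8 genes, the peak near the end of *tba-1* was 97.9% unique in the pooled list. The length of the reads is not given in the sources used here.

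None of the 8 optimal summits had the composite Hox and Pbx cofactor motif TGATNNAT, searched on both strands with N for any base, within 50 bp, against 8.92% of all optimal summits. With 100 bp on both sides the count was also 0 of 8, against 15.1% of all optimal summits. In any of the 4 lists, the only tubulin summit of the 8 genes with the motif was a weak one of replicate 1 at *tba-4*, 594 bp upstream (rank 15086), which had 2 copies of TGATTTAT 41 and 27 bp from it. A missing match says only that these letters are not in these windows. The GC content of the 101 bases around the 8 summits ran from 39.6% to 59.4% with a median of 46.0%, against a median of 48.5% and quartiles of 43.6% and 52.5% over all optimal summits.

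By the same window rule, the strongest peaks of the other tubulin genes were weaker than those of the 4 general genes. Of 8 further tubulin genes, 4 had an optimal summit, against 19.2% of all protein-coding genes: *ben-1*, the beta tubulin through which benzimidazole drugs act (596 bp upstream, signal 60.4), the alpha tubulin gene *tba-7* (in an intron, 59.8), *tba-9*, an alpha tubulin gene of ciliated neurons (in an intron, 39.1), and *tbg-1*, the gamma tubulin gene (836 bp upstream, 37.6, and 105 bp from the start of *rpac-19*). Their ranks in the optimal list, 1664 to 3582, all lay below the strongest peaks in the windows of the general genes, at 21 to 433. Of those strongest peaks, the ones at *tba-1* and *tbb-1* lay nearest to the starts of *cox-5B* and *rib-2*. By the nearest start *tba-1* kept a peak at rank 1127 and *tbb-1* had none. The *tbg-1* peak ranked 2896 in replicate 2 but 10803 in replicate 1, and in replicate 1's own 4250 strongest peaks 2 of the 8 had a summit, against 18.3% of all protein-coding genes. *tba-5*, *tba-6*, *tba-8* and *tbb-6* had none in the optimal list, and *tbb-6* had none in any list. Windows of these 8 further genes ran from 3838 to 6892 bp, most of them above the median of 4027 bp over all protein-coding genes. The second *tba-9* summit (signal 34.2) lay nearest to *lbp-3* and the second *ben-1* summit (33.8) 1700 bp upstream.

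Genes whose proteins modify, bind or move along microtubules were also counted. Of 36 such genes 18 (50%) held an optimal summit, against 19.2% of all protein-coding genes. The count was 17 in each replicate's own 4250 strongest peaks, against 18.3% of all genes in replicate 1 and 19.0% in replicate 2. The strongest were at *ptrn-1*, which protects microtubule minus ends (501 bp upstream, signal 126, rank 423 in replicate 1 and 402 in replicate 2), *cls-2*, a CLASP protein gene (969 bp upstream, 115, but 289 bp from the start of *R107.5*), *lis-1*, a dynein regulator (729 bp upstream, 111), and *atat-2*, an alpha tubulin acetyltransferase gene (1617 bp upstream, 78.6). The median of their strongest signals was 62.7, against 58.8 over all genes with an optimal summit. Windows of the 36 genes ran from 2987 to 17639 bp. Most were longer than the median of 4027 bp over all protein-coding genes, so the shares are not of windows of like length.

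The last list holds genes of the touch receptor neurons, in which *mec-12* and *mec-7* act. Of 14 such genes 2 (14.3%) held an optimal summit: *mec-8*, an RNA-binding protein gene (1695 bp upstream, signal 53.7), and *mec-2*, a stomatin-like channel subunit gene (in an intron, 40.3). Both also had one in each replicate's own 4250 strongest peaks. That gave 2 of 14 in both, against 18.3% of all protein-coding genes in replicate 1 and 19.0% in replicate 2. The share of 14.3% stood beside 19.2% of all protein-coding genes, and the difference was not tested. Neither gene's signal reached the median of 58.8 over all genes with an optimal summit. All 14 windows, 4760 to 25077 bp, were longer than the median of 4027 bp over all protein-coding genes.

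**Figure D4:**
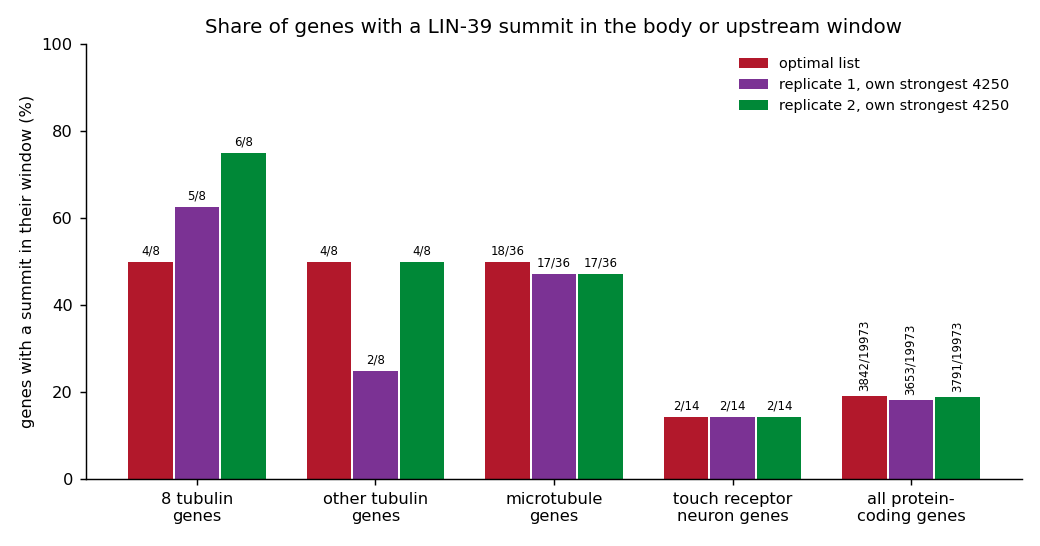
Percent of genes with a LIN-39 summit in the gene body or up to 2000 bp upstream, in the optimal list and in each replicate's own 4250 strongest peaks, with the counts above the bars. The 8 tubulin genes stand at 50%, 62.5% and 75%, and all protein-coding genes at 19.2%, 18.3% and 19.0%.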

How the data were processed

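LIN-39 peaks were taken from the peak lists on ce11 that the authors deposited: a relaxed list per replicate, a relaxed pooled list and an optimal list thresholded for reproducibility. The deposited file indexes name the same control alignments for both replicates, and the control's own data were not analysed here. Per the labels, fragments were 150 to 350 bp. Not given in the sources used here are the aligner, peak caller and reproducibility threshold. The signal and the −log10 q-value of each peak are the authors' as deposited; the q-value sits at its ceiling for all optimal peaks and was not used. The deposited summit offset (another column of the lists, in bp) gave each summit. All peaks ended within the chromosome lengths of the reference assembly WBcel235 (ce11); genes are from Ensembl release 115. Counts, distances, motif, repeat and 36-base searches were made with Python 3.11.15 and pandas 2.3.3, and the window rule was tested on simulated summits. The list of tubulin genes and the other lists were chosen with earlier results of these data known. Named are all tubulin genes and the protein-coding genes with the nearest start to a counted summit. Also named are up to 4 genes of each other list with the highest signal, and the 3 genes most like *tba-1*. The neighbours *eif-6*, *C36E8.10*, *lbp-3*, *rpac-19* and *R107.5* fall outside this rule and were chosen after their values were seen. So do *lin-54*, *rpl-12* and *tag-115*, which were also named after their values were seen. Lists on ce10 were not used.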

Additional observations from a re-analysis of the deposited data

How the results depend on the processing

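The count of 4 tubulin genes with an optimal summit was 4 with 1000 bp upstream, against 15.6% of all protein-coding genes. It was also 4 with the 1000 strongest peaks (5.76% of all genes) and with any overlap of a peak by 1 bp (20.2%). With 5000 bp upstream it was 5, against 27.0% of all genes, and by the nearest start 3, against 16.0%. It fell to 1 (*tba-2*) in gene bodies alone. Leaving out replicate 2 gave 5, against 18.3% of all genes, and leaving out replicate 1 gave 6, against 19.0%. In gene bodies alone 2 of 8 other tubulin genes, 5 of 36 microtubule genes and 1 of 14 touch receptor neuron genes had a summit, against 5.22% of all protein-coding genes. Among the 1000 strongest peaks these counts were 0, 4 and 0, against 5.76%. Leaving out replicate 2 gave 2 other tubulin genes, against 18.3% of all genes, and leaving out replicate 1 gave 4, against 19.0%. With 1000 bp upstream 1 of 14 touch receptor neuron genes had a summit, against 15.6% of all protein-coding genes. Alternatives for this list were chosen after seeing the data. The strongest signal at *tba-1* was 73.0 with 1000 bp upstream and by the nearest start, and *tbb-1* had no summit by the nearest start. By peak midpoint the *tba-1* distance was -1079 bp. Leaving out a replicate gave -223 to -266 bp for *tbb-1* and -697 to -1470 bp for *tbb-2*. The motif count was 0 at every window and position tried. Over the alternatives that gave a value, 44 values stayed within their limit (1.5 times for counts, the spread between replicates for positions), 14 moved and 0 reversed. The loss of the *tbb-1* summit by the nearest start left no signal to compare and is not in this tally. No paired analysis was possible because there is a single group and no test. Depth is unknown, so a missing peak does not show a lack of binding.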
